A study of Mus musculus with 23 samples.

Results

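The genes described here encode the proteins of the cytosolic ribosome. They were taken by symbol from the deposited table, by the names Rpl, Rplp, Rps and Rpsa with their usual numbering, and kept where the value was 10 or more in at least 5 of 23 libraries. All 76 symbols that matched were kept, of 16385 genes tested. They comprise 43 proteins of the large subunit, 3 of its P stalk and 30 of the small subunit. Rps3a1, Fau and Rack1, which also give or bind ribosomal proteins, fall outside these names and are given with the related genes.

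The libraries were made from polyadenylated RNA of the orbitofrontal cortex of male wild-type C57BL/6J mice, labelled as 8 weeks old. Every mouse received an AAV6 vector into this region on day 0, with a Gfap promoter, which is active in astrocytes, driving either GFP or the zinc-finger transcription factor ZBTB7A. On day 21 the mice met either a subthreshold social defeat, a short encounter with an aggressor, or a control condition. All were then tested for behaviour on days 22 to 27, and infected tissue was dissected on day 28. Unstressed mice gave 5 libraries with each vector, named GFP control and ZBTB7A control. Stressed mice gave 8 with GFP (GFP stress) and 5 with ZBTB7A (ZBTB7A stress), and each library carries the number of its title. The promoter directs the transgene to astrocytes, while the dissected tissue holds all of its cell types. The labels do not say that each library came from its own mouse, so p-values measure the spread between these samples. In bulk tissue, fewer cells of a type and less RNA per cell cannot be told apart.

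A ribosome joins a small subunit, which reads the mRNA, to a large subunit, which forms the peptide bonds. Its proteins are needed in nearly equal numbers, and most are made from short, highly expressed mRNAs that begin with a stretch of pyrimidines. This terminal oligopyrimidine (TOP) start lets mTOR, through proteins such as Larp1, turn their translation up or down together. In neurons such mRNAs are also found in dendrites and axons, and in astrocytes in fine processes.

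Runs of pyrimidines near the annotated start, where a TOP start would lie, can be looked for in the genes themselves. RefSeq promoter entries (build GRCm38.p6) were matched for 56 of the 76 members. The windows shown run from 30 bases before to 20 bases after the annotated start, and capitals mark the longest unbroken run of C and T within 20 bases on either side of it. The first set holds members with such a run whose levels are described below.
Rps6 (chr4:86857348-86857397, - strand): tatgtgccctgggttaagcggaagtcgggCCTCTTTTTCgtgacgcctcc
Rpl4 (chr9:64173357-64173406, + strand): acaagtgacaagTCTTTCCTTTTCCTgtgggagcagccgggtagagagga
Rpl18 (chr7:45718041-45718090, + strand): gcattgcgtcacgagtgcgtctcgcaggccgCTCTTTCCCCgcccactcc
Rpl15 (chr14:18270967-18271016, - strand): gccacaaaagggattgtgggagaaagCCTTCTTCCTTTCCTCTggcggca
Rps15a (chr7:118116128-118116177, - strand): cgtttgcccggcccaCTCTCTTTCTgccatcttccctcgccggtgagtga
Rplp2 (chr7:141447621-141447670, + strand): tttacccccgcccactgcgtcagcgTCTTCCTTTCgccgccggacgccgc
Rps12 (chr10:23787190-23787239, - strand): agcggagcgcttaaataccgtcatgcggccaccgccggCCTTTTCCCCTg
Rpl11 (chr4:136053374-136053423, - strand): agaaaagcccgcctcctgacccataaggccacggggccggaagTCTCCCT
The second set holds abundant members in which the longest run within 20 bases of the start has 3 letters.
Rps3 (chr7:99483690-99483739, - strand): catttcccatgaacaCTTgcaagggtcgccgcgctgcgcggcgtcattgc
Rpl41 (chr10:128549149-128549198, - strand): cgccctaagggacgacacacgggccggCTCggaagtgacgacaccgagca
A run of at least 8 C or T within 20 bases of the start was found in 28 of the 56 members (50%), against 18.4% of 27025 genes with an entry. Rps6, the substrate of S6 kinase, had 10 such bases beginning 1 base before its start, and Rpl15 had 17. In Rpl4 and Rps15a the run begins 18 and 15 bases before the annotated start and ends before it. In Rps12 and Rpl11 it begins only at bases 9 and 14 after the start. A run counted here therefore does not by itself mark a TOP start. Rps3 had no run longer than 3 within 20 bases of its annotated start, which may differ from the start used in this tissue.

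Other motifs were searched on both strands over the 300 bases of each entry, and a match describes letters only. All genes here are the 27025 with an entry, whether or not they were detected in these libraries. CCGGAAG, a site of ETS factors such as GABP, was present in 23 of 56 members (41.1%) against 9.93% of all genes. AANATGGC, a site of YY1, was present in 11 (19.6%) against 6.96%. GGGCGG, the SP1 site, was present in 34 (60.7%) against 38.2%. The TATA box TATAAA was present in 6 (10.7%) against 15.7%, and the E-box CACGTG in 6 (10.7%) against 8.09%. CCCTTCC, which is part of the ZBTB7A site in the gamma-globin promoter, was present in 11 members (19.6%) against 13.8% of all genes. Its letters are all C or T, so a match can lie within a run counted above.

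Per length, the members did not share a level. Values here are normalized counts divided by the length of 1 GENCODE M21 transcript, and the order depends on which transcript stands for a gene. Rplp1, a stalk protein that helps to recruit elongation factors, was highest at 7070 normalized counts per kb, followed by Rps14 at 5898, a protein of the small-subunit platform. Rpl8, near the peptidyl transferase centre, stood at 5697 per kb, and Rpl4, which lines the exit tunnel, at 4497. The lowest were Rpl39, a short protein of the exit tunnel, at 72.7 per kb, Rpl21 at 88.6 and Rpl17 at 201. The stalk proteins differed by length-scaled level among themselves, with Rplp0 at 1541 and Rplp2 at 1221 per kb.

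Many members have processed pseudogenes, so reads may not be placed uniquely, and how such reads were counted is not given in the sources used here. As a guide, each transcript was cut into all its 50-base stretches and these were looked up in transcripts of other genes. Rps3 shared 2.96% of its stretches, Rpl8 7.86% and Rpl4 16.5%. At the other end Rps27 shared 98.6%, Rpl35 95.1% and Rpl5 93.8%. Rpl21 shared stretches with 82 other genes, 81 of them pseudogenes, and Rpl7a with 123. Rpl39 shared 16.5%, yet had the lowest level per kb. The levels of members with much shared sequence are therefore uncertain, and Rpl21, Rpl17 and Rpl29 are among them.

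**Figure D1:**
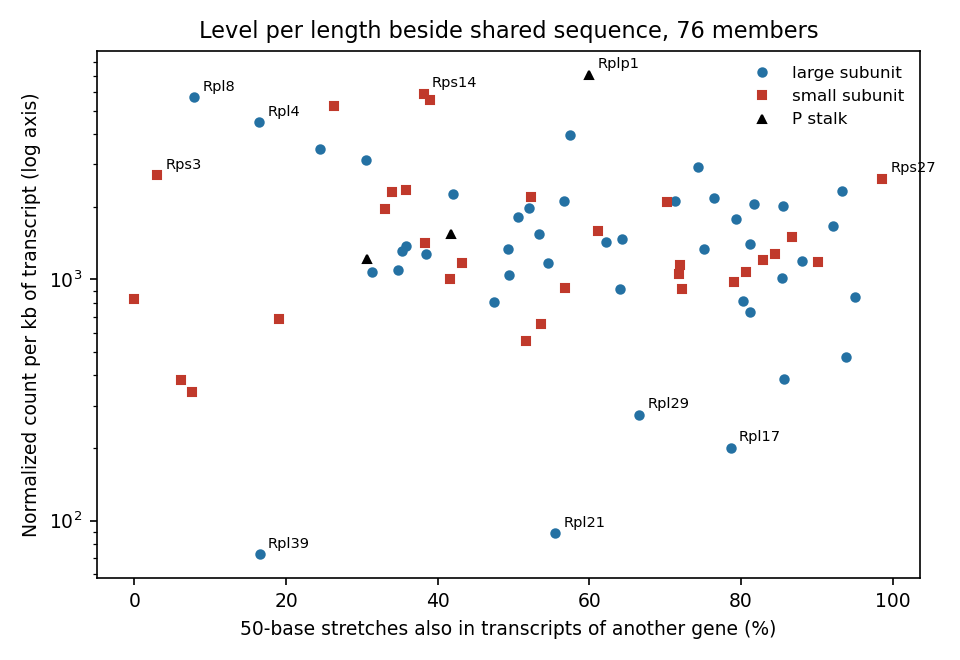
Each point is 1 of the 76 members, with the share of its 50-base stretches that also occur in transcripts of another gene (horizontal, %) and its mean normalized count per kb (vertical, log axis). Rplp1 is highest at 7070, Rpl39 and Rpl21 are lowest at 72.7 and 88.6, and members of middle level occur across the whole range of shared sequence.

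In counts, Rpl4 was the most abundant member and among the steadiest. It measured 7092, 6969, 7092, 6226 and 6877 normalized counts in GFP control 1, 2, 10, 11 and 19. In GFP stress it ranged from 6460 over a median of 6799 to 7230. ZBTB7A control 6, 14, 15, 23 and 24 gave 6964, 7114, 6840, 6990 and 7101, and ZBTB7A stress 7, 9, 17, 25 and 26 gave 7109, 7199, 7022, 7018 and 7165. The groups overlapped and GFP control 11 was the lowest library. Its SD between libraries within groups was 0.05 on the log2 scale, the smallest of the 76, followed by Rps14 (0.08) and Rpl5 (0.08), which carries 5S rRNA into the large subunit with Rpl11.

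Rpl39 lay at the other end, with 48.5, 38.7, 34.6, 30.2 and 52.2 normalized counts in GFP control and 27.8 to 55.6 around a median of 47.9 in GFP stress. It had 33.2, 43.6, 53.6, 41.7 and 47.3 in ZBTB7A control and 45.1, 41.2, 45.0, 41.8 and 52.1 in ZBTB7A stress, in the order of title numbers above. All groups overlapped. Its SD of 0.27 was second to that of Rpl18 (0.40), and Rps29, a small zinc-binding protein, followed at 0.27. Over the 76 members the median SD was 0.14, and 33 of them were steadier than the median of the 200 non-member genes closest to them in mean count.

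Rpl18 was the exception among the abundant members. It measured 1210, 2260, 2770, 3019 and 1887 normalized counts in GFP control and 1610 to 2588 around a median of 1986 in GFP stress. In ZBTB7A control it measured 3175, 1902, 1337, 1730 and 1407, and in ZBTB7A stress 2623, 1908, 1801, 1381 and 1394. GFP control and ZBTB7A control each held both low and high libraries, so the groups overlapped over nearly the whole range. Across the 23 libraries, after centring on group means, Rpl18 followed the level of GC-rich transcripts relative to GC-poor ones (r = 0.83). That level was computed from genes that are no members. Rps15a ran the other way (r = -0.86), as did Rpl15 (r = -0.80) and Rps24 (r = -0.65), against a median of -0.26 over the members. These are descriptions over libraries that share depth and base composition, and the part of base composition in the spread of these genes was not tested.

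Most members varied together from library to library. After centring on group means, each member was correlated over 23 libraries with the mean of the other members, on a log2 scale. The median r was 0.84, and 58 of 76 members (76.3%) had an r of 0.7 or more, against 3.02% of 16309 other tested genes and 5.26% of the 1598 other genes with transcripts in the shortest 10%. The points share library, depth and scaling. Rpl11, which with Rpl5 can bind Mdm2, was highest at 0.97, followed by Rps19 (0.96), a gene mutated in Diamond-Blackfan anaemia, and Rps26 (0.95) at the mRNA exit. The stalk genes Rplp1 and Rplp2 had 0.94 and 0.92.

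Rps19 shows the pattern. Its normalized counts were 1045, 1018, 828, 710 and 938 in GFP control and 746 to 1002 around a median of 931 in GFP stress. They were 1135, 822, 709, 878 and 863 in ZBTB7A control and 1051, 1124, 809, 836 and 864 in ZBTB7A stress. GFP control 1 and 2, ZBTB7A control 6 and ZBTB7A stress 7 and 9 were high, GFP control 11 and ZBTB7A control 15 low, and the groups overlapped.

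7 members had an r under 0.4. They were Rpl21 (-0.10), Rps15a (-0.09), Rpl39 (0.06), Rpl18 (0.17), Rpl17 (0.24), Rpl15 (0.25) and Rps14 (0.40 after rounding). Rpl21, Rpl17 and Rpl39 are the 3 members of lowest count. Rpl18, Rps15a and Rpl15 are the ones above with the strongest r, of either sign, with the GC level of the libraries. Their own transcripts hold 58.3%, 45.3% and 54.4% G and C, against a median of 51.9% over the members. Rpl15 thus lay above this median although it ran against the GC level. The value of Rps15a is that of a transcript of 5130 bases, which is long for a member. Rps15a gave 2292, 2017, 1776, 1746 and 1870 normalized counts in GFP control and 1773 to 2080 around 2050 in GFP stress. It gave 1693, 1883, 2168, 2056 and 2136 in ZBTB7A control and 1871, 1790, 1916, 1887 and 2092 in ZBTB7A stress. It was thus low in ZBTB7A control 6 and high in ZBTB7A control 15, where most members stood the other way round.

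**Figure D2:**
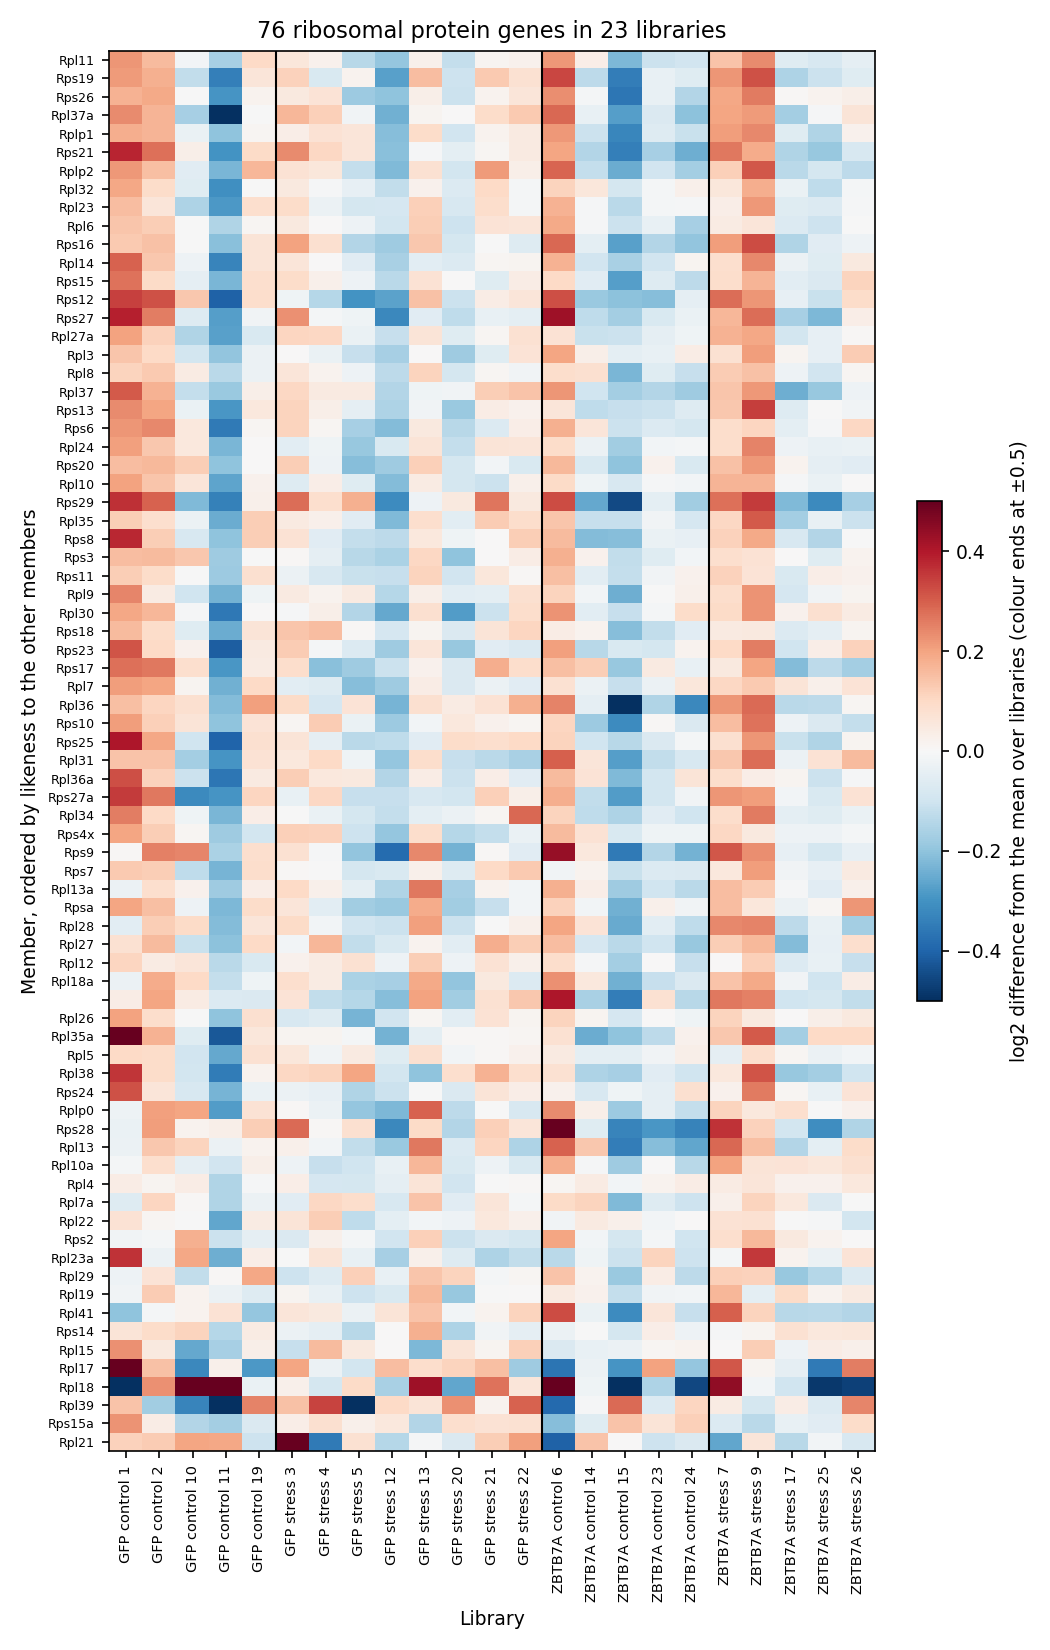
Rows are the 76 members, ordered from the most to the least like the other members, and columns are the 23 libraries by group. Colour gives the log2 difference from a member's mean over all libraries and ends at 0.5 on either side. GFP control 1 and 2, ZBTB7A control 6 and ZBTB7A stress 7 and 9 are red through most rows, GFP control 11 and ZBTB7A control 15 are blue, and the lowest rows with Rpl18, Rpl39, Rps15a and Rpl21 break the pattern.

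A level per library was taken as the mean over members of their centred log2 values. It was highest in ZBTB7A stress 9 (0.170), GFP control 1 (0.165), ZBTB7A control 6 (0.147), GFP control 2 (0.130) and ZBTB7A stress 7 (0.127). It was lowest in GFP control 11 (-0.208), ZBTB7A control 15 (-0.182) and GFP stress 12 (-0.141). The whole range came to 1.30-fold, and members made up 0.364% to 0.535% of the normalized total of a library. The small-subunit level ranged wider, from -0.238 to 0.212, than the large-subunit level, from -0.186 to 0.157.

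Genes outside the 76 were ranked by the likeness of their pattern to this level, with genes of low mean count left out. Of those ranked, the most alike were Eef1b2 (r = 0.91), the histone gene H2afv (0.91) and Btg1 (0.89), an antiproliferative factor. Eef1b2 is a subunit of the exchange factor of elongation factor 1. Eef1a1, the elongation factor itself, was also among the 10 most alike (0.87). Among the 10 most opposite were Pi4ka (-0.92), a lipid kinase, and Cyfip2 (-0.92), a part of the WAVE complex. The presynaptic genes Unc13a (-0.91) and Syt7 (-0.91) were also at that end. These are correlations over the same 23 libraries after centring on group means.

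Markers of several cell types ran with or against the level, here without centring on group means unless stated. All 8 excitatory neuron markers were detected in every library, and their mean level ran against the ribosomal level, with Pearson's r = -0.74 and Spearman's rho = -0.73. Without ZBTB7A stress 9 and ZBTB7A control 6, the libraries farthest from the median of the markers, r was -0.73. The summed normalized counts of these markers ranged from 114601 to 215557 in GFP control, 167930 to 236722 in GFP stress, 102939 to 195233 in ZBTB7A control and 122050 to 178539 in ZBTB7A stress. The ribosomal level ran with the oligodendrocyte (r = 0.56), striatal neuron (r = 0.54), olfactory bulb and neuroblast (r = 0.62), choroid plexus (r = 0.48) and astrocyte markers (r = 0.43). With centring, r was 0.58, 0.59, 0.61, 0.65 and 0.46 in this order, and -0.84 for the excitatory neuron markers. Relations were weaker for microglia (r = 0.34), inhibitory neurons (r = 0.25), blood (r = -0.23) and endothelium (r = -0.04). Their part in the ribosomal level was not tested.

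Transcript length moved with it as well. Members are short, with a median transcript of 768 bases against 2777 for other genes. The level of the shortest 10% of other transcripts minus that of the longest 10% ran with the ribosomal level (r = 0.70, rho = 0.73, and r = 0.63 without ZBTB7A control 24 and ZBTB7A control 15). Recovered reads (r = -0.22) and the GC level (r = -0.20) had weaker relations with it, of negative sign. None of these r was centred on group means, and with centring that of transcript length was 0.79. The part of transcript length in the ribosomal level was not tested.

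**Figure D3:**
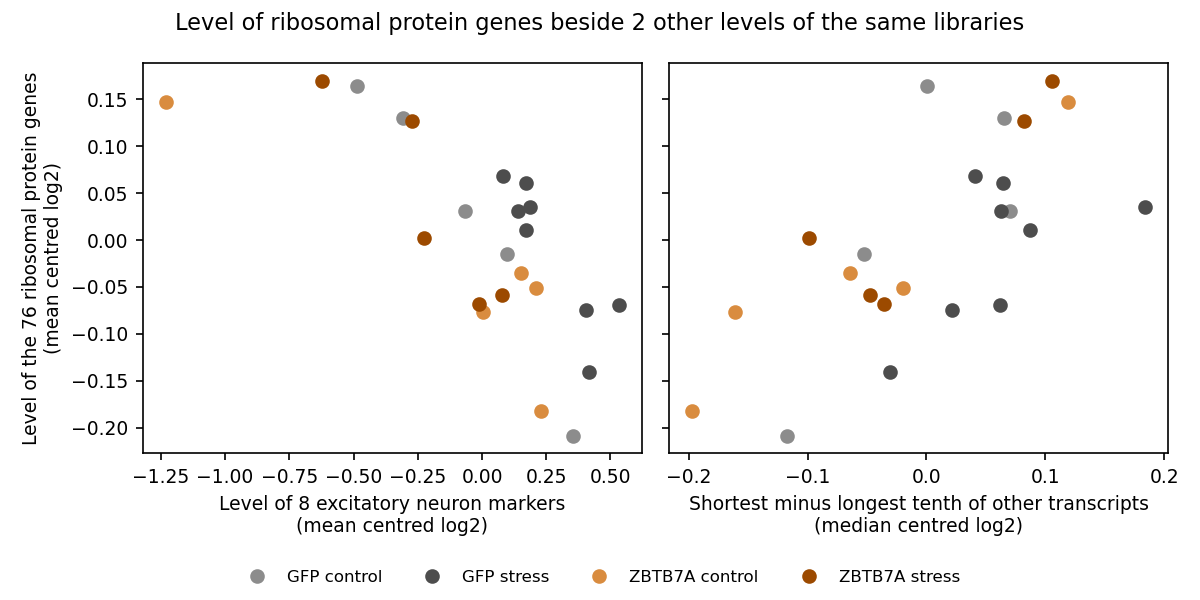
Each point is 1 of 23 libraries, coloured by group, with the ribosomal level (vertical, mean centred log2) against the level of 8 excitatory neuron markers (left) or the shortest 10% minus the longest 10% of other transcripts (right). The points fall to the right in the left panel (r = -0.74) and rise in the right panel (r = 0.70).

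By group, the ribosomal level under GFP was 0.02 ± 0.15 (SD, n = 5) in controls and -0.01 ± 0.08 (n = 8) after stress. Under ZBTB7A it was -0.04 ± 0.12 (n = 5) in controls and 0.03 ± 0.11 (n = 5) after stress. The groups overlapped, and no difference between their means exceeded the pooled SD within groups of 0.110. Title numbers go round the groups 3 times, and splitting the libraries this way gave means of 0.093, -0.082 and -0.021 in runs of 8, 7 and 8 libraries. What the runs stand for is not given in the labels.

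**Figure D4:**
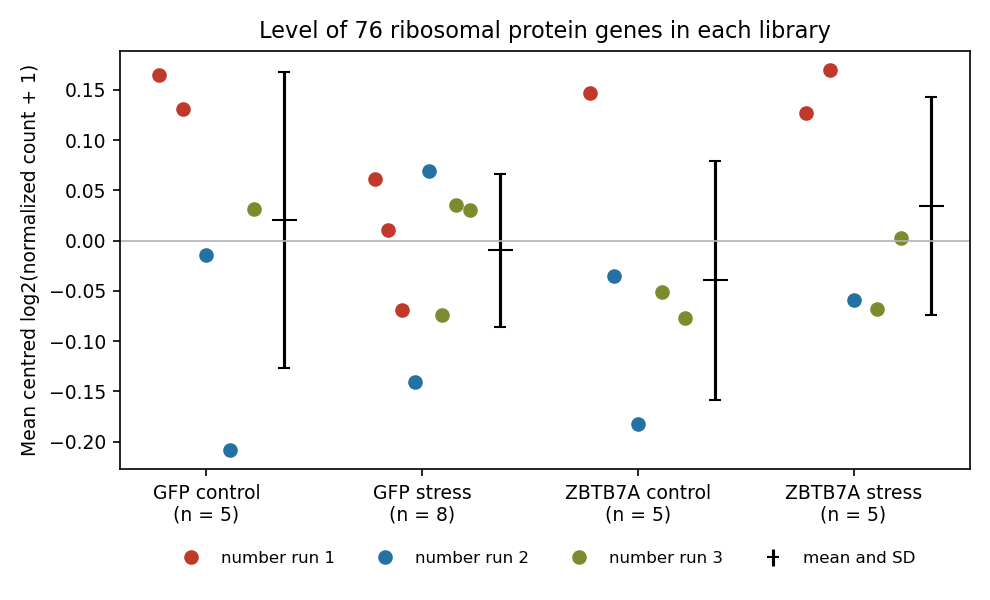
Points are libraries, coloured by run of title numbers, and show the mean over 76 members of centred log2(normalized count + 1). Bars give the group mean and SD beside the points. All groups overlap, and the libraries of the first run are the highest in GFP control, ZBTB7A control and ZBTB7A stress.

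Each member was then tested for the virus, for stress and for their interaction in 1 limma fit across 16385 genes, with Benjamini-Hochberg adjustment over all of them. No member passed an adjusted p of 0.05 in any comparison, and 0% of all genes did. On recovered reads 0 members passed in edgeR, which called 0% of all genes. DESeq2 also called 0 members, and of all genes 0% for the virus without stress, 0.281% with stress, 0.0427% averaged, 0.238% for stress under GFP, 0.0061% under ZBTB7A and 0.0183% for the interaction. At an unadjusted p under 0.05 there were 0 members for the virus without stress (1.73% of all genes), 3 with stress (16.1%), 0 averaged over stress (6.07%), 1 for stress under GFP (11.2%), 0 under ZBTB7A (1.66%) and 1 for the interaction (7.42%). These counts are at or below the share among all genes. Mouse Zbtb7a itself had a fold of 0.965 between viruses averaged over stress, with a 95% interval of 0.890 to 1.05 in limma, so the libraries are named by their labels. Whether the transcript of the vector is counted under this gene is not known from the files, so this fold does not check the labels. Comparisons that share a group share its libraries.

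Without stress, most members had lower means under ZBTB7A than under GFP, and the mean level differed by less than its pooled SD. The median log2 fold change was -0.05, against -0.01 over all genes, with 12 members above 0 and 64 below, or 20 and 56 with the median of other genes made equal. It was -0.04 in the large subunit, -0.07 in the small subunit and -0.10 in the stalk. The smallest p belonged to Rps21, which helps to process small-subunit rRNA. It gave 2679, 2486, 2097, 1672 and 2196 normalized counts in GFP control and 2359, 1854, 1621, 1830 and 1734 in ZBTB7A control, and these overlap. Its log2 fold change was -0.24 ± 0.12 (SE; limma adjusted p = 1.00).

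Rpl36 followed, with 593, 575, 565, 460 and 615 in GFP control and 635, 518, 372, 481 and 427 in ZBTB7A control (log2 fold change -0.22 ± 0.12, limma adjusted p = 1.00). Its highest value in either group was in ZBTB7A control 6. Rps10, at the head of the small subunit, had -0.14 ± 0.09. The median of the 76 lay between -0.12 and -0.02 when single libraries were left out. Leaving out GFP control 1 gave -0.02, GFP control 2 -0.03, GFP control 11 -0.12, ZBTB7A control 6 -0.10 and ZBTB7A control 15 -0.02. It was -0.14 with array weights, which weight libraries by their fit, and 0.00 with covariates for transcript length and GC. Choroid plexus markers had a level of 1.59 ± 1.08 (SD, n = 5) in GFP control and -0.16 ± 0.95 (n = 5) in ZBTB7A control. With the levels of the striatal, the olfactory bulb and neuroblast, and the choroid plexus markers as covariates, the median of members turned to 0.06.

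With stress, most members had higher means under ZBTB7A than under GFP, and the mean level again differed by less than its pooled SD. The median was 0.05, against 0.01 over all genes, with 58 members above 0 and 18 below. It was 0.03 in the large subunit, 0.07 in the small subunit and 0.05 in the stalk. Rpl7, a protein of the large subunit that contacts rRNA, had the smallest p. It ranged from 1541 over a median of 1713 to 1832 in GFP stress and gave 1916, 1956, 1868, 1816 and 1871 in ZBTB7A stress. Only ZBTB7A stress 25 lay within the range of GFP stress.

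The fold of Rpl7 was 1.11 with a 95% interval of 1.02 to 1.22 (limma adjusted p = 0.250). Rpl10a, which forms the L1 stalk, gave 804 to 977 around a median of 838 in GFP stress and 1002, 911, 914, 906 and 920 in ZBTB7A stress. The groups overlapped through GFP stress 13, and the log2 fold change was 0.13 ± 0.06 (limma adjusted p = 0.273). Rpl3, close to the peptidyl transferase centre, had 0.14 ± 0.06 (limma adjusted p = 0.284). Excitatory neuron markers were higher in these GFP stress libraries (level 0.26 ± 0.16, n = 8) than in ZBTB7A stress (-0.21 ± 0.27, n = 5), and striatal markers lower (-0.93 ± 1.41 against 0.95 ± 0.60). Their part was not tested. The median became 0.00 without ZBTB7A stress 9, 0.03 without ZBTB7A stress 7 or GFP stress 12, and 0.07 without ZBTB7A stress 17 or 25. It was -0.08 with the 3 tissue levels as covariates, 0.11 with those for length and GC, and 0.02 with the median of other genes made equal.

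In the order of the runs of title numbers, the median of members was 0.16, -0.02 and -0.03 with stress, and -0.01, 0.00 and -0.09 without. With stress, the median was thus above 0 only within the first run, which holds ZBTB7A stress 7 and 9. With the run as a covariate the median with stress was 0.04, with 56 members above 0 and 20 below. Each of these values rests on 1 to 3 libraries a group.

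Averaged over stress, the median of members for the virus was 0.00, with 40 above 0 and 36 below, and its sign changed with single libraries. Rpl3 had the smallest p with a fold of 1.07 and a 95% interval of 1.00 to 1.14. Rpl21 had a log2 fold change of -0.16 ± 0.09 and Rps21 of -0.13 ± 0.08. The limma adjusted p was 0.767 for each.

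Stress under GFP gave a median of -0.04, against -0.01 over all genes, with 21 members above 0 and 55 below. The large subunit had -0.01, the small subunit -0.05 and the stalk -0.05. Rpl7 again had the smallest p, and its counts were 2064, 2047, 1802, 1509 and 1912 in GFP control, so that the lowest of both groups was GFP control 11. Its log2 fold change was -0.13 ± 0.06 (limma adjusted p = 0.426). Rps3, at the mRNA entry channel, had -0.10 ± 0.06 and Rpl26, near the exit of the tunnel, -0.09 ± 0.06.

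The size of this median depended on single libraries, although it stayed below 0 whichever library was left out. Leaving out GFP control 1 gave a median of -0.00, GFP control 2 -0.01, GFP control 11 -0.09 and GFP stress 12 -0.02. Scaled so that the median of other genes is equal in all libraries, 30 members were above 0 and 46 below, with a median of -0.01. With the 3 tissue levels as covariates the median was 0.18, and -0.10 with array weights or the length and GC covariates. In the runs of title numbers it was -0.15, 0.08 and -0.05. Choroid plexus markers had a level of 1.59 ± 1.08 (SD, n = 5) in GFP control and of -0.80 ± 0.59 (n = 8) after stress, and the lowest control (0.749) lay above the highest stressed library (0.149). Striatal markers had 0.44 ± 0.63 in the controls and -0.93 ± 1.41 in the stressed libraries, and excitatory neuron markers -0.08 ± 0.33 and 0.26 ± 0.16. The covariate fit did not hold the excitatory neuron markers, and the choroid plexus levels of these groups did not overlap. That fit therefore cannot tell these markers from stress, and their part was not tested.

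Stress under ZBTB7A gave a median of 0.07, against 0.01 over all genes, with 70 members above 0 and 6 below. The large subunit had 0.06, the small subunit 0.09 and the stalk 0.08. The smallest p belonged to Rpl10a, at 988, 867, 770, 872 and 791 in ZBTB7A control against the values of ZBTB7A stress above. The ranges overlapped because of ZBTB7A control 6, and the log2 fold change was 0.12 ± 0.06 (limma adjusted p = 1.00). Rpl36 had 0.21 ± 0.12 and Rps26 0.17 ± 0.10. The median within the runs was -0.01, 0.05 and 0.03, and it was 0.04 with the run as a covariate, 0.02 with the 3 tissue levels and 0.01 with those for length and GC. Without ZBTB7A control 6 it was 0.11, and 0.04 without ZBTB7A control 15 or ZBTB7A stress 9.

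The interaction, the stress effect under ZBTB7A minus that under GFP, had a median of 0.12, against 0.01 over all genes. 67 members were above 0 and 9 below, or 57 and 19 with the median of other genes made equal. Rpl7 had 0.22 ± 0.09 (limma adjusted p = 0.668), Rpl23a, where nascent chains leave the tunnel, 0.25 ± 0.13 (adjusted p = 0.671) and Rps12 0.32 ± 0.17 (adjusted p = 0.676). Rps12 gave 735, 721, 636, 437 and 615 normalized counts in GFP control and 470 to 642 around 554 in GFP stress. It gave 724, 509, 502, 500 and 561 in ZBTB7A control and 703, 676, 563, 536 and 617 in ZBTB7A stress. All 4 groups overlapped. The median of members was 0.08 without ZBTB7A stress 9, 0.20 with array weights and -0.14 with the 3 tissue levels as covariates.

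**Figure D5:**
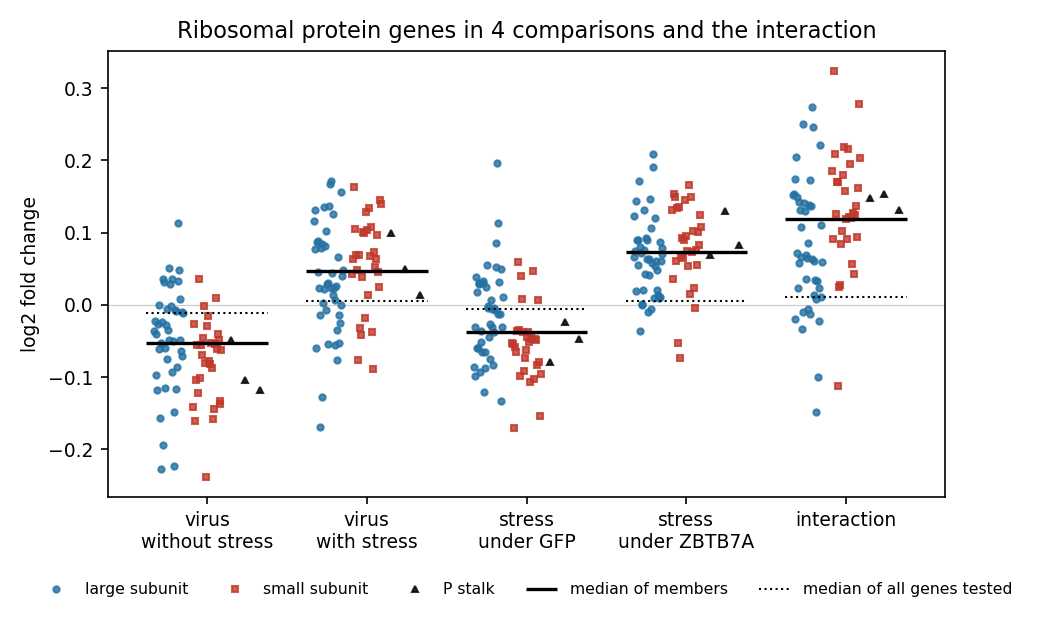
Each point is 1 member, by subunit, with its log2 fold change in 4 comparisons and in the interaction. Solid lines give the median of the 76 members (-0.05, 0.05, -0.04, 0.07 and 0.12 from left to right) and dotted lines that of all 16385 genes tested. No point passed an adjusted p of 0.05 in limma.

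With limma's array weights, some members passed an adjusted p of 0.05. Rpl7 and Rpl10a rose with the virus under stress, with log2 fold changes of 0.16 ± 0.04 each. These 2 of 76 compare with 14% of all genes called, 7.21% upward. Rpl7 fell with stress under GFP at -0.21 ± 0.05, as 1 of 76 against 4.08% of all genes, 2.84% downward. For the interaction 10 members passed, all above 0, among them Rps12 (0.52 ± 0.13), Rps9 (0.49 ± 0.14), Rplp0 (0.32 ± 0.09) and Rpsa (0.32 ± 0.09). This is 13.2% of the members, against 12.6% of all genes in either direction and 7.09% upward.

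With 2 covariates for transcript length and GC, added after the data were seen, 11 members passed for the virus with stress, 10 upward and 1 downward. The upward share was 13.2% of members, against 14.8% of all genes in either direction and 6.54% upward. For stress under GFP 3 members passed, all downward, which is 3.95% against 3.65% of all genes, 2.41% downward. The differences between these shares and the background were not tested.

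The stalk genes give the size of these differences. Rplp0, which anchors the stalk, measured 2045, 2402, 2384, 1713 and 2188 normalized counts in GFP control and 1780 to 2552 around 2005 in GFP stress. It measured 2455, 2123, 1836, 2019 and 1917 in ZBTB7A control and 2250, 2160, 2204, 2080 and 2113 in ZBTB7A stress. Its ZBTB7A stress libraries lay close together, inside the range of the other groups.

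Other genes of the pathway were read from 4 lists. The r of a single gene is given after centring on group means, and the r of a list's level without centring. With centring, the lists had r of 0.91, 0.82, -0.17 and -0.35 in the order below. Of the ribosomal proteins outside the 76 names, 9 of 13 were tested and 0 passed in any comparison. Rps3a1 had a mean of 1814 normalized counts, Fau, a fusion of a ubiquitin-like protein with Rps30, 1888, and Rack1, a signalling scaffold on the small subunit, 1571. The paralogs Rpl7l1 (745), Rpl22l1 (628), Rpl36al (401), Rps4l (235) and Rps27l (132) were also detected, while Rpl3l reached at most 12.1, Rps27rt 7.16, Rpl39l 5.21 and Rpl10l was at 0 in all libraries. The level of this list ran with that of the members (r = 0.91), but Rpl7l1 did not (r = 0.00).

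Of 23 translation factors and other TOP transcripts, 0 passed in limma. Eef1a1 ranked first for the virus with stress at 0.18 ± 0.07 (adjusted p = 0.261), and the mean level of this list also ran with the members (r = 0.80). Single genes of the list differed. Eef1a2, the form of the elongation factor in mature neurons, ran against the members (r = -0.85), and Eif3a (-0.28), Eef2 (-0.12) and Eef1d (0.10) did not follow them. Of 48 factors of ribosome biogenesis and RNA polymerase I, 0 passed. Bop1, which processes large-subunit rRNA, had the smallest p of this list for the virus with stress (-0.17 ± 0.05, adjusted p = 0.183) and for stress under GFP (0.15 ± 0.05, adjusted p = 0.369). This list's level did not follow the members (r = -0.16).

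Of 21 regulators, 0 passed. Larp1 (r = -0.81) and Mtor (r = -0.89), long transcripts whose products control TOP mRNAs, ran against the level of the members over the 23 libraries. The mean level of the list had r = -0.34, and other regulators ran with the members, among them Gabpa (r = 0.72), Myc (0.63), Max (0.44) and Mdm2 (0.41). Rheb, the activator of mTOR, had -0.20 ± 0.08 for the virus with stress (limma adjusted p = 0.255), with 2151 ± 227 (SD, n = 8) normalized counts in GFP stress and 1868 ± 50.3 (n = 5) in ZBTB7A stress. Myc averaged 119 normalized counts, and Mdm2 had the smallest p of the list for the interaction (0.19 ± 0.09, adjusted p = 0.669).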

How the data were processed

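The deposited table gives 1 column of normalized counts for each of 23 libraries. It is treated as a signal made by the authors from whole reads divided by 1 size factor per library, with no correction for gene length. Per the submitters' processing notes, the tools were, in no stated order, HISAT2 (2.1.0), DESeq2 (2.11.40.6) and featureCounts (2.0.1). The builds mm10 and mm9 are named without a role. Per the labels' protocols, RNA was extracted with Trizol and an RNeasy Micro kit and sequenced as TruSeq v2 libraries. Of 27606 entries 428 were repeats and were removed. Divided by the smallest step of its library, 100% of values came out whole within 0.02 reads, which recovers the reads. They came to 12.5 to 51.9 M per library, and normalized totals to 21.5 to 25.2 M.

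The 16385 genes that reached 10 in at least 5 libraries were fitted on log2(normalized count + 1) with limma 3.58.1 in R 4.3.3, trended and robust, as 4 group means with 6 contrasts. Fold changes are on that scale, tests are two-sided, and p-values were adjusted by Benjamini-Hochberg over all genes at 0.05. The fit was tested on simulated data. Alternatives changed the scaling (TMM, or equal medians of other genes), the test (DESeq2 1.42.0 or edgeR 4.0.16 on reads, limma without its robust option or with array weights) and the threshold (adjusted p under 0.1). Others changed the filter (none, or a mean of at least 50), the pseudocount (5), the covariates (number run, or 3 tissue levels) and the libraries (groups compared alone, each library left out). Length and GC covariates were added after seeing the data. The smallest p-values, the highest and lowest counts, the largest and smallest SDs and a panel of 14 genes chose the members named with values, 30 in all. Some genes are not reported here. Genes named for their likeness, per-length level or promoter were chosen after their values were seen. The members and all lists were chosen with earlier results of these data known.

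Transcript lengths and 50-base stretches are from GENCODE M21, and promoters from RefSeq on GRCm38.p6. Other software was numpy 2.4.6, pandas 2.3.3 and matplotlib 3.10.9 under Python 3.11.15.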

Additional observations from a re-analysis of the deposited data

Results flagged for a closer look

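Values of 30 named members, of the mean levels and of the members' share of counts were checked in each of 4 groups. Of these 140 sets of values, 12 (8.57%) held a library far from the others, judged by its gap to the nearest library over the range of the set. Chance gives about 1 in 20 in independent sets. Members varied together and some were named for their large SD, so these shares cannot be compared. In GFP control 11, Rpl4 (6226 normalized counts), Rpl22 (1371), a protein with the paralog Rpl22l1, and Rps14 (3184) lay below the other 4 libraries. In GFP control 19, Rpl21 was low at 73.4. In GFP stress 13, Rpl10a (977), Rplp0 (2552) and Rps14 (3975) lay above the other 7 libraries, and in GFP stress 5 Rpl39 was low at 27.8. ZBTB7A control 6 was high for Rplp2 (1432) and Rps12 (724). ZBTB7A stress 7 was high for Rpl10a (1002) and ZBTB7A stress 9 for Rpl23a (275). GFP control 11 had the lowest level of the ribosomal protein genes of all 23 libraries (-0.208) and ZBTB7A stress 9 the highest (0.170).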

How the results depend on the processing

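No paired analysis was possible because no title number is shared between groups. With levels of 3 tissue marker lists as covariates, the median log2 fold change of members moved to 0.065 for the virus without stress, -0.080 with stress, 0.18 for stress under GFP and -0.14 for the interaction, and the cause was not tested. In the same fit Rps21 (0.016) and Rps10 (0.030) reversed for the virus without stress, and Rps3 (0.11), Rpl26 (0.013), Rack1 (0.10), Bop1 (-0.00641) and Mdm2 (0.073) for stress under GFP. For the interaction Rps12 (-0.13), Rack1 (-0.10), Eef1a1 (-0.12) and Mdm2 (-0.023) reversed. Array weights called 2 members for the virus with stress, 1 for stress under GFP and 10 for the interaction. Covariates for length and GC called 11 (virus with stress) and 3 (stress under GFP), and the cause was not tested. With single libraries left out, medians ran from -0.12 to -0.02 for the virus without stress, 0.00 to 0.07 with stress, -0.03 to 0.02 averaged, -0.09 to -0.00 for stress under GFP, 0.04 to 0.11 under ZBTB7A and 0.08 to 0.16 for the interaction. No library left out gave a call among the members. Small differences in Rpl39 or Rpl21 are limited by their low counts, and those between members of much shared sequence by how reads were placed.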
